A study of Sus scrofa with 15 samples.

Results

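Positions Sr01R05C07, Sr01R05C08, Sr01R06C02 and Sr02R09C04 are 4 of the 140 distinct printed positions of a pig array, and at each of them Landrace backfat gave far more signal than Taihu backfat in some months. They were given as a list of codes with no stated limit, and they were selected on the values described here: the fitted breed difference and the brightness of the spots. The breed differences are therefore a description and carry no test. A code gives the row of blocks, the row and the column of a spot, and each position is printed 4 times per array, once in each block of its row of blocks. The files hold 0 gene names for these codes, so no gene, gene role or sequence can be attached to a position.

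The tissue was backfat, the subcutaneous fat along the back, from pigs of 2 breeds. The groups are Landrace, which the study calls its lean type, at months 1, 2, 3, 4 and 5, and Taihu, its fat type, at the same months. Each of the 10 breed and month combinations has 1 RNA sample, and each RNA sample was read on 3 of 15 arrays: 5 breed arrays (Cy3 for Landrace, Cy5 for Taihu), and a closed loop of 5 arrays over the months in each breed. The labels do not say how many animals stand behind an RNA sample, nor give sex, diet or what the months count from, so p-values measure the spread between arrays and not between animals. In bulk tissue, fewer cells of a type and less RNA per cell cannot be told apart.

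Backfat grows by filling and adding fat cells, and pig breeds kept for lean meat and for fat differ in how much of it they lay down. On a 2-colour array, 2 RNA samples carrying different dyes compete for the same printed spot, and the ratio of the dyes compares the samples at that spot. A scanner reports no brightness above a fixed ceiling, so a spot at the ceiling hides how much brighter its sample truly was. A loop of arrays that returns to its first month lets a consistent excess of 1 dye be separated from a change between months.

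The positions fit their description as bright in unequal measure. Ranked by the median over all 30 channel readings, of signal relative to the median of its channel, Sr01R05C07 was 7th, Sr01R06C02 10th, Sr02R09C04 17th and Sr01R05C08 32nd of 140, a ranking of spots and not of transcripts. The median of mean signal minus background (called signal from here on, in scanner units, averaged over the 4 copies) was 30694 at Sr01R05C07, 16469 at Sr01R06C02, 13540 at Sr02R09C04 and 4902 at Sr01R05C08. All 4 were detected in all 30 readings, and 0 of their 240 spots were marked by the image software. In the fit over all arrays, the largest excess of Landrace over Taihu at any month was log2 3.89 at Sr01R05C08, 3.60 at Sr01R05C07, 3.01 at Sr02R09C04 and 2.90 at Sr01R06C02, which are ranks 1, 2, 4 and 5 of 138 positions. Rank 3 went to Sr01R07C08 with 3.19, which is not on the list, and rank 6 to Sr02R06C03 with 2.63. The excess was not present in every month: on the breed arrays all 4 positions were brighter for Landrace at months 1, 3 and 4, and all 4 were brighter for Taihu at month 5.

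One array stood apart at these positions. It is labelled Taihu month 4 in Cy5 over Taihu month 5 in Cy3 and is called the Taihu 4-over-5 array below. At Sr01R05C08, Taihu month 4 gave a signal of 65255 on this array, against 621 on the breed array and 191 on the array that set Taihu month 3 over 4. Taihu month 5 gave 59347 there, against 8773 and 4621 on its other arrays. Both RNA samples of the pair were thus near the ceiling on this array and far from it on the others.

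The other 3 positions showed the same split for Taihu month 4. Its signal on the Taihu 4-over-5 array was 65256 at Sr01R05C07, against 2730 and 895 elsewhere. At Sr01R06C02 it was 64668, against 2030 and 458. At Sr02R09C04 it was 65242, against 1340 and 463. The excess was smaller for Taihu month 5, whose signal was already high on its other arrays at Sr01R05C07: 62281 on this array, against 36056 and 35477. At Sr01R06C02 it was 64452, against 9628 and 6659, and at Sr02R09C04 46914, against 7183 and 5837. After subtracting the median log2 signal of each channel, the Taihu month 4 reading on this array exceeded the higher of its other readings by log2 4.65 at Sr01R05C07, 6.79 at Sr01R05C08, 5.07 at Sr01R06C02 and 5.68 at Sr02R09C04.

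**Figure D1:**
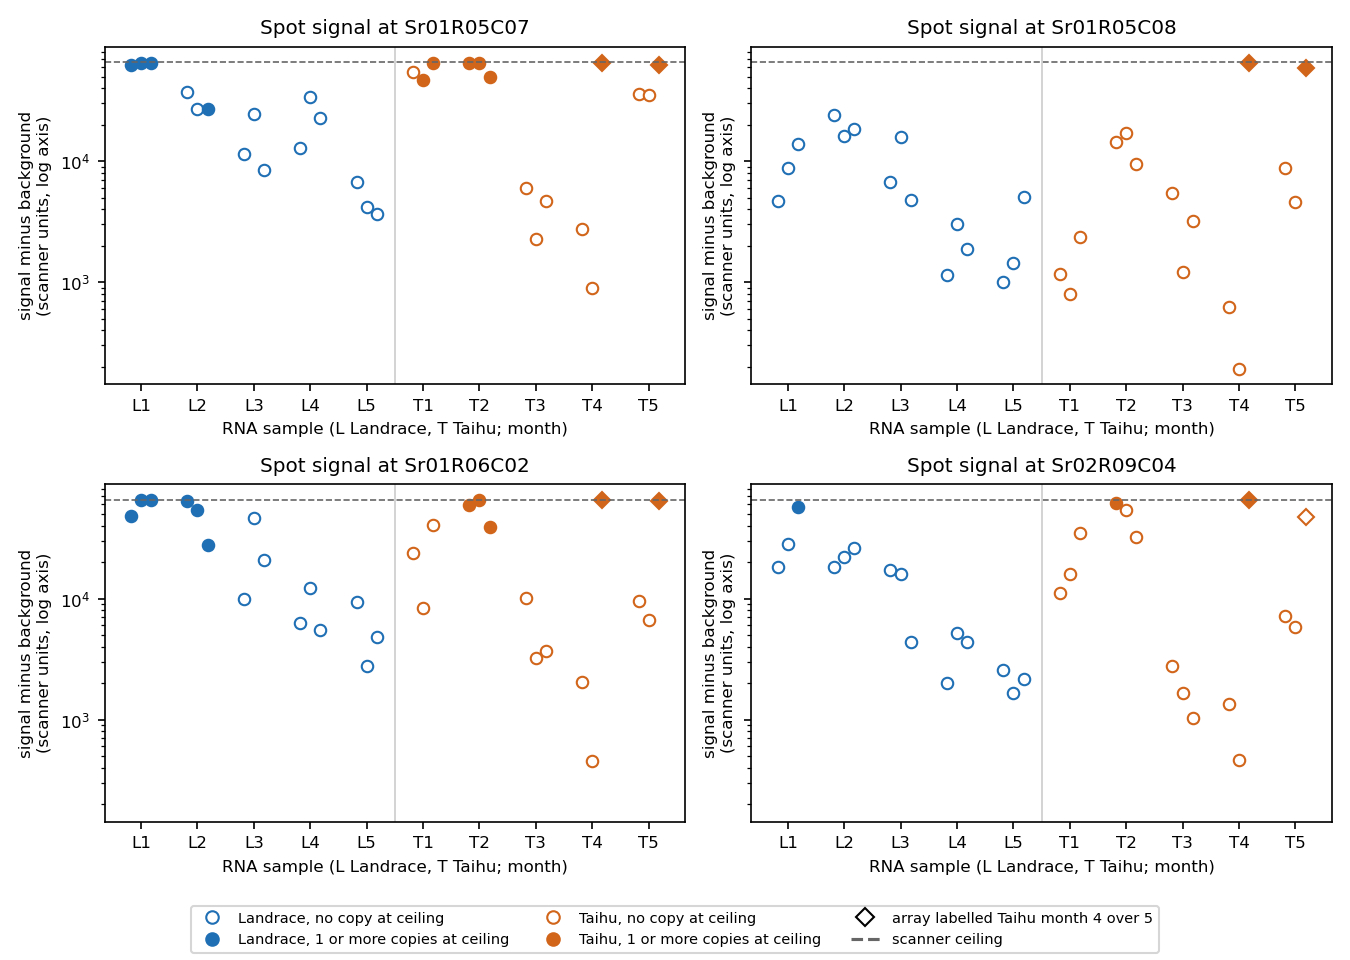
Signal minus background of the 4 positions (log axis, scanner units, mean of 4 copies) for each RNA sample, Landrace months 1 to 5 and then Taihu months 1 to 5, with 1 point for each of its 3 arrays. Filled points have 1 or more copies at the ceiling (dashed), and diamonds mark the array labelled Taihu month 4 over Taihu month 5, whose Taihu month 4 points lie between 64668 and 65256 while the other Taihu month 4 points lie between 191 and 2730.

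The difference was not confined to the 4 positions. The same excess was above log2 2 at 15 of the 136 other positions for Taihu month 4 and at 12 of 136 for Taihu month 5, while its median over the other positions was -0.56 and -0.09. Sr01R05C08 had the largest excess of all 140 for Taihu month 4. Over 134 other positions with a value in every channel, the log2 signals of the Cy5 channel of this array correlated at r = -0.67 with those of Taihu month 4 on its other arrays, and its Cy3 channel at r = -0.51 with Taihu month 5 (Pearson, each position centred within its dye). In the other 28 channels this correlation with the other readings of the same RNA sample ran between 0.08 and 0.92 when the Taihu 4-over-5 array was left out on both sides. The array thus disagrees in level with the other arrays of the RNA samples on its labels. What sets it apart was not tested. The fitted breed differences and the main fitted courses below are given with it (15 arrays) and without it (14 arrays). Fitted values given only once include it.

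**Figure D2:**
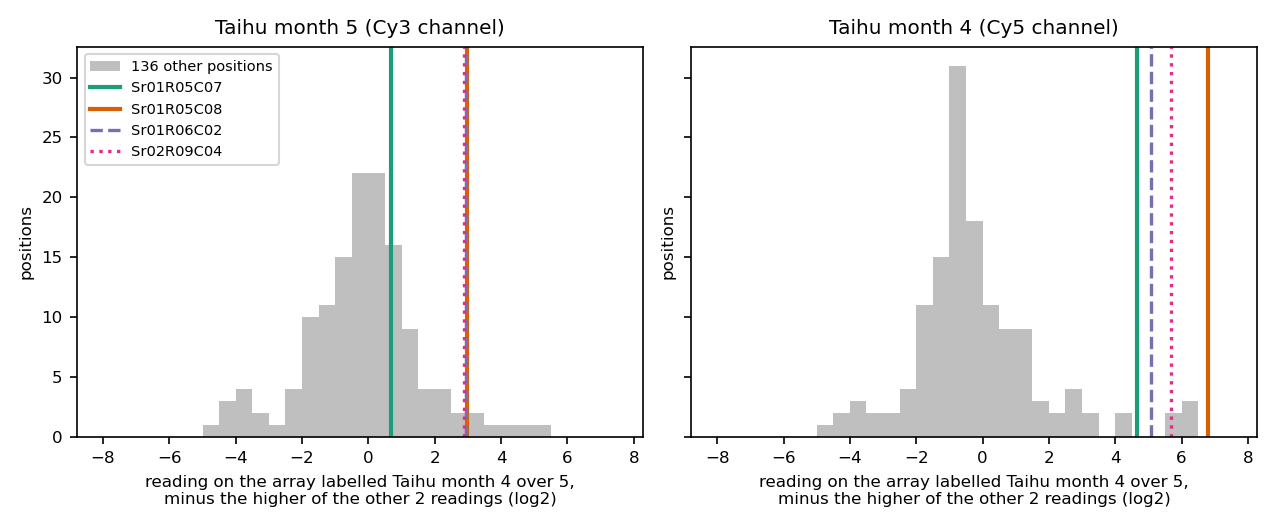
For every position, the log2 signal on the array labelled Taihu month 4 over Taihu month 5, minus the higher of the other 2 readings of the same RNA sample (each minus the median of its channel), for Taihu month 5 on the left and Taihu month 4 on the right. Grey bars count the 136 other positions, and the lines of the 4 positions lie at 4.65 to 6.79 for Taihu month 4.

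Signal Median stood at the ceiling, the highest value a channel can hold, in 77 of 480 single readings of the 4 positions (240 spots in 2 channels). This was 18.2% of the 422 such readings on the arrays, which came from 19 of the 140 positions. Sr01R05C07 and Sr01R06C02 had 32 of 120 readings each at the ceiling, Sr02R09C04 had 7 and Sr01R05C08 had 6. All 6 ceiling readings of Sr01R05C08 lay on the Taihu 4-over-5 array, and that array held 24 of the 77.

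The ceiling touched months 1 and 2 most. All 4 copies were at the ceiling in at least 1 channel on 5 of 15 arrays at Sr01R05C07, on 4 at Sr01R06C02, and on 1 each at Sr01R05C08 and Sr02R09C04. In both channels at once this happened at Sr01R05C07 on the array that set Taihu month 1 over 2, and at Sr01R06C02 on the array of Landrace month 1 over month 2 and on the Taihu 4-over-5 array. Those ratios hold no information on size and are given no fold. A ratio with all 4 copies of 1 channel at the ceiling is given as a lower bound ("at least"), the lowest of the ratio before normalization, after it, and after the correction for dye excess described below. No bound is given where that value does not favour the channel at the ceiling. A bound that subtracts the dye excess takes its fitted value as exact.

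On the breed arrays Sr01R05C07 moved the furthest in both directions. Its signals at months 1 to 5 were 65088, 26870, 24618, 34203 and 3660 in Landrace, against 54598, 64827, 6037, 2730 and 36056 in Taihu. Landrace was higher at months 1, 3 and 4, and Taihu at months 2 and 5. The normalized ratio was 11.2-fold in favour of Landrace at month 4 (log2 3.48 ± 0.07, SD over 4 copies) and 4.07-fold at month 3 (2.02 ± 0.04).

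At month 5 the same position was 6.43-fold higher in Taihu on the breed array (log2 Landrace minus Taihu -2.68 ± 0.13). Landrace was at the ceiling in all 4 copies at month 1 and was at least 1.14-fold higher. Taihu was at the ceiling in all 4 copies at month 2, with a ratio of log2 1.05 in its favour before the dye correction. It was at least 1.29-fold higher if the fitted dye excess of 0.68 (SE 0.26) is exact. The Taihu loop alone gave a dye excess of 1.24, above that ratio, so this array does not settle the direction. The fit gave log2 0.92, -0.49, 2.51, 3.60 and -1.16 for Landrace minus Taihu at months 1 to 5 (SE 0.68 each) over 15 arrays. Over 14 arrays it gave 0.30, -0.89, 2.32, 4.04 and -2.41, with an SE of 0.24 at month 1.

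Sr01R05C08 had its largest breed difference at month 1. Its signals were 8763, 16281, 15958, 3036 and 5022 in Landrace, against 1174, 14262, 5434, 621 and 8773 in Taihu. None of these readings had a copy at the ceiling. Landrace was higher at months 1 to 4 and Taihu at month 5.

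The ratio at Sr01R05C08 on the breed arrays was 7.24-fold in favour of Landrace at month 1 (log2 2.86 ± 0.06), 3.15-fold at month 3 and 4.61-fold at month 4. At month 2 it was 1.40-fold in favour of Landrace (0.48 ± 0.13), and at month 5 it was 1.29-fold in favour of Taihu (-0.37 ± 0.24). The fit gave 3.89, 0.97, 2.30, 2.57 and 0.47 (SE 0.51) over 15 arrays, and 3.49, 0.71, 2.18, 2.86 and -0.33 over 14. The sign at month 5 thus turned with the array left out, and both month 5 values lie within 1 SE of 0.

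At Sr01R06C02 Landrace gave 65232, 54256, 46333, 12214 and 4811, against 23873, 59234, 10126, 2030 and 9628 in Taihu. Landrace was at the ceiling in 4 of 4 copies at month 1 and was at least 2.56-fold higher there. Months 3 and 4 had no copy at the ceiling, and Landrace was 4.40-fold higher (log2 2.14 ± 0.10) at month 3 and 5.58-fold higher (2.48 ± 0.09) at month 4.

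Month 2 at Sr01R06C02 had 2 copies of Landrace and 3 of Taihu at the ceiling, with a ratio of log2 0.10 ± 0.14. At month 5 Taihu was 1.37-fold higher (log2 Landrace minus Taihu -0.46 ± 0.06). The fit gave 2.00, 0.75, 2.79, 2.90 and 0.58 (SE 0.35) over 15 arrays, and 1.71, 0.56, 2.70, 3.11 and -0.02 over 14. At month 5 the fitted excess of Landrace was gone without the Taihu 4-over-5 array.

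Sr02R09C04, the only one of the 4 in the second row of blocks, had signals of 28352, 21861, 16018, 5149 and 2178 in Landrace, against 11062, 62046, 2780, 1340 and 7183 in Taihu. Landrace was higher at months 1, 3 and 4, and Taihu at months 2 and 5, as at Sr01R05C07. The excess of Landrace was 2.28-fold at month 1 (log2 1.19 ± 0.03), log2 2.58 ± 0.04 at month 3 and 3.51-fold at month 4 (1.81 ± 0.08). Taihu was 2.38-fold higher at month 2, where 2 of its copies were at the ceiling, and 2.20-fold higher at month 5.

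The fit for Sr02R09C04 gave 1.51, -0.90, 3.01, 2.08 and -0.04 (SE 0.31) over 15 arrays, and 1.27, -1.05, 2.94, 2.24 and -0.51 over 14. At months 3 and 4 all 4 positions had the same sign: every fitted value lay between 2.08 and 4.04 in both fits. Each breed array of those months pointed the same way. The positions were chosen on a large fitted excess of Landrace, which was largest at month 3 or 4 everywhere but at Sr01R05C08. The shared sign thus follows in part from the choice. At month 5 the sign differed among the positions over 15 arrays and was negative at all 4 over 14. At month 2 Landrace minus Taihu was positive at Sr01R05C08 and Sr01R06C02 and negative at Sr01R05C07 and Sr02R09C04 in both fits.

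**Figure D3:**
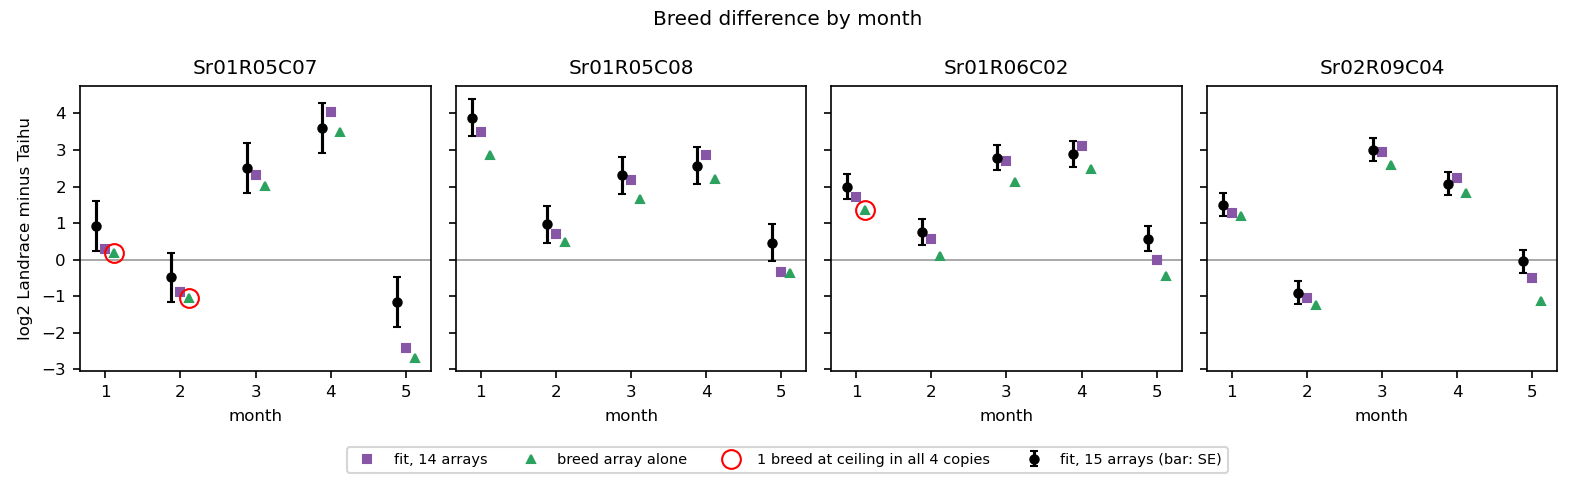
Log2 Landrace minus Taihu at months 1 to 5 for each position: the fit over 15 arrays with its SE (circles), the fit over 14 arrays without the array labelled Taihu month 4 over Taihu month 5 (squares), and the breed array alone with no dye correction (triangles). Red rings mark breed arrays with 1 breed at the ceiling in all 4 copies, which limits the ratio. Months 3 and 4 lie at 1.65 or above in all 3 kinds of value, and month 5 lies below months 3 and 4 at every position.

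The breed arrays always had Landrace in Cy3, so an excess of 1 dye at a position shifts all 5 of its breed ratios by the same amount. The fitted excess of Cy5 over Cy3 was log2 0.68 at Sr01R05C07 (SE 0.26), 0.67 at Sr01R05C08 (SE 0.20), 0.68 at Sr01R06C02 (SE 0.13) and 0.49 at Sr02R09C04 (SE 0.12), against a median of 0.05 over all 138 positions. Correcting for it moves the breed difference towards Landrace. The correction rests on the closed loops, which gave different values in the 2 breeds: 0.13, 0.19, 0.37 and 0.36 from the Landrace loop alone and 1.24, 1.16, 0.99 and 0.62 from the Taihu loop alone, for the positions in the order just given. Without the Taihu 4-over-5 array the fitted values were 0.28, 0.41, 0.49 and 0.34.

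The arrays can also be checked in squares of 4, since the breed difference at 2 months and the change between those months in each breed must add up to 0 when there is no error. A dye excess cancels in these sums. For months 4 and 5, the square that holds the Taihu 4-over-5 array, the sums were log2 -3.73 at Sr01R05C07, -1.96 at Sr01R05C08, -1.73 at Sr01R06C02 and -1.72 at Sr02R09C04. The median absolute sum over 134 other positions was 0.36. On the Taihu 4-over-5 array month 4 was at the ceiling in all 4 copies at each of the 4 positions, so each of their sums holds a ratio limited by the ceiling. In the squares without that array the sums of the 4 positions were also often larger in size than at other positions. They lay between -0.48 and 0.09 for months 1 and 2, where that median was 0.19, between -1.0 and -0.36 for months 2 and 3 (0.22), and between -0.81 and -0.26 for months 3 and 4 (0.097). For months 1 and 5 they lay between -1.37 and 1.12 (0.18). Squares with month 1 or 2 also held ratios with copies at the ceiling at Sr01R05C07 and Sr01R06C02.

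The next comparison was the course of the 4 positions within each breed. In Landrace all 4 passed the threshold of 0.05 for variation between months (limma's moderated F-test, Benjamini-Hochberg over 138 positions), where 55.8% of all positions did. The levels that chose the positions enter every test of the courses in both breeds, month 5 against month 1 included. The counts are therefore given beside the share of all positions, with no p for a single position, and nothing is read from them. All 4 were past the threshold as lower at month 5 than at month 1 in Landrace, where 27.5% of all positions were. The fitted change was log2 -3.81 at Sr01R05C07 (SE 0.64), -2.68 at Sr01R05C08 (SE 0.49), -3.18 at Sr01R06C02 (SE 0.33) and -3.84 at Sr02R09C04 (SE 0.30), against a median of 0.06 over all positions. Over 14 arrays it ran between -3.81 and -2.63.

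The array that set Landrace month 5 directly against month 1 gave log2 -3.46, -2.60, -2.71 and -3.19 for Sr01R05C07, Sr01R05C08, Sr01R06C02 and Sr02R09C04, that is 11-, 6.05-, 6.53- and 9.11-fold lower at month 5. At month 1, 2 of 4 copies of Sr01R05C07 and 1 of 4 copies of Sr01R06C02 were at the ceiling. Without this array the fitted change was -3.13 at Sr01R05C07, -1.45 at Sr01R05C08, -2.76 at Sr01R06C02 and -4.20 at Sr02R09C04. Sr01R05C07 and Sr01R05C08 then missed the threshold, and of these the change at Sr01R05C08 was the one that shrank by over 1.5 times.

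The path between the ends differed among the positions. At Sr01R05C07 the Landrace loop gave log2 -1.30 for month 3 minus 2, 0.38 for month 4 minus 3 and -2.33 for month 5 minus 4. On the array of months 1 and 2, Landrace month 1 was at the ceiling in all copies, with a ratio of log2 0.87 in its favour before the dye correction. Month 1 was at least 1.14-fold higher if the fitted dye excess is exact. The dye excess of 1.24 from the Taihu loop alone is above that ratio. The size of that step is thus not known, and this array does not settle its sign.

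At Sr01R05C08 Landrace month 2 was above month 1 by 0.73, and the later steps were -1.47, -2.25 and -0.55. At Sr01R06C02 months 1 and 2 were both at the ceiling on their common array, and the later steps were -1.63, -1.81 and -1.04. At Sr02R09C04 every step was negative, with -1.69, -0.62, -1.23 and -1.45. Apart from the lower bound, these loop values carry no dye correction, and each array held the earlier month in Cy5. On the array of months 2 and 3, 1 copy of Sr01R05C07 and 1 of Sr01R06C02 were at the ceiling at month 2. For month 3 minus 2 at Sr02R09C04 the fit gave -0.28 (SE 0.30) over 15 arrays and -0.39 over 14. In the fit the highest Landrace month was 1 at Sr01R05C07 and Sr02R09C04 and 2 at Sr01R05C08 and Sr01R06C02, and the lowest was month 5 at all 4, in both fits. Not every rank is resolved. Over 15 arrays month 2 minus 1 at Sr01R05C07 was -0.46 (SE 0.64), within 1 SE of 0. At Sr01R06C02 it was 0.39 (SE 0.33), but the array that set these months directly against each other was at the ceiling for both, so their order is not known. At Sr01R05C08 months 4 and 5 lay within 1 SE of each other over 14 arrays (-0.14, SE 0.33). Highest and lowest month lay log2 3.57 to 3.86 apart over 15 arrays and 3.39 to 3.81 apart over 14.

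Taihu backfat followed another path, with the fitted level highest at month 2 and lowest at month 4 at all 4 positions in both fits. Not every rank is resolved. Over 15 arrays months 3 and 4 lay within 1 SE of each other at Sr01R05C07 and Sr02R09C04. At Sr01R05C07 months 1 and 2 were both at the ceiling on their common array. All 4 passed the threshold for variation between months by the same test, where 60.9% of all positions did. Highest and lowest month lay log2 4.21 to 4.83 apart over 15 arrays and 4.67 to 5.86 apart over 14.

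The array that set Taihu month 2 over 3 held the largest single change. Signals there were 2262 for month 3 and 49582 for month 2 at Sr01R05C07, 1213 and 9534 at Sr01R05C08, 3202 and 38882 at Sr01R06C02, and 1647 and 32311 at Sr02R09C04. Month 3 was 34.2-, 12.5-, 18.5- and 28.4-fold lower, in the same order (log2 -5.10 ± 0.23, -3.64 ± 0.26, -4.21 ± 0.14 and -4.83 ± 0.27, SD over 4 copies). These ratios carry no dye correction, and month 2 was in Cy5. The fit over all arrays gave smaller changes, of log2 -4.01, -2.55, -3.26 and -4.19 (16.2-, 5.86-, 9.60- and 18.2-fold lower). Without the array that stood apart it gave -4.52, -2.88, -3.51 and -4.38. On the Landrace array of the same months the changes were -1.30, -1.47, -1.63 and -0.62. At month 2, 2 copies of Sr01R05C07 and 1 of Sr01R06C02 were at the ceiling on the Taihu array. On the Landrace array 1 copy of each was at the ceiling at month 2.

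Taihu month 4 minus month 3 was again negative on the direct array, with log2 -1.89 at Sr01R05C07, -3.40 at Sr01R05C08, -2.51 at Sr01R06C02 and -0.72 at Sr02R09C04. Apart from the lower bound below, the direct ratios here carry no dye correction. For month 4 minus month 3 the fit over all arrays gave -0.62, -2.28, -1.54 and -0.02, in the same order. Without the array that stood apart it gave -1.34, -2.75, -1.88 and -0.29. The change from month 1 to month 2 differed by position. Taihu month 2 was 9.14-fold above month 1 at Sr01R05C08 and 1.62-fold above it at Sr02R09C04, and at least 1.61-fold above it at Sr01R06C02, where month 2 was at the ceiling in all copies. At Sr01R05C07 both months were at the ceiling. Sr01R05C08 thus started low in Taihu at month 1, with signals of 1174, 797 and 2380 on its 3 arrays, against 8763, 4708 and 13778 in Landrace. These signals are not normalized and come from 1 RNA sample per breed on different arrays and dyes. The position was chosen for its breed difference at this month, so nothing further is read from them.

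The step from month 4 to month 5 in Taihu was measured directly only on the array that stood apart. On that array month 4 was at the ceiling in all 4 copies at every position, and its ratios give no size for the step. The fit over 15 arrays gave log2 1.96, 1.47, 1.40 and 0.71 for Sr01R05C07, Sr01R05C08, Sr01R06C02 and Sr02R09C04, and the fit over 14 arrays gave 4.41, 3.05, 2.57 and 1.65. In Landrace the step was -2.81, -0.63, -0.92 and -1.40 over 15 arrays and -2.05, -0.14, -0.56 and -1.11 over 14. The step in Taihu was positive in both fits at all 4 positions, and its size moved by over 1.5 times at each.

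Of the 4 positions, 2 were lower at month 5 than at month 1 in Taihu past the threshold, where 21.0% of all positions were. These were Sr01R06C02 with log2 -1.76 (SE 0.33) and Sr02R09C04 with -2.30 (SE 0.30). Sr01R05C07 was measured at -1.73 (SE 0.64) and Sr01R05C08 at 0.73 (SE 0.49). Without the Taihu 4-over-5 array the values were -1.42, -2.02, -1.02 and 1.20 in the same order, and all 4 passed in 1 direction or the other, where 47.1% of all positions did.

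**Figure D4:**
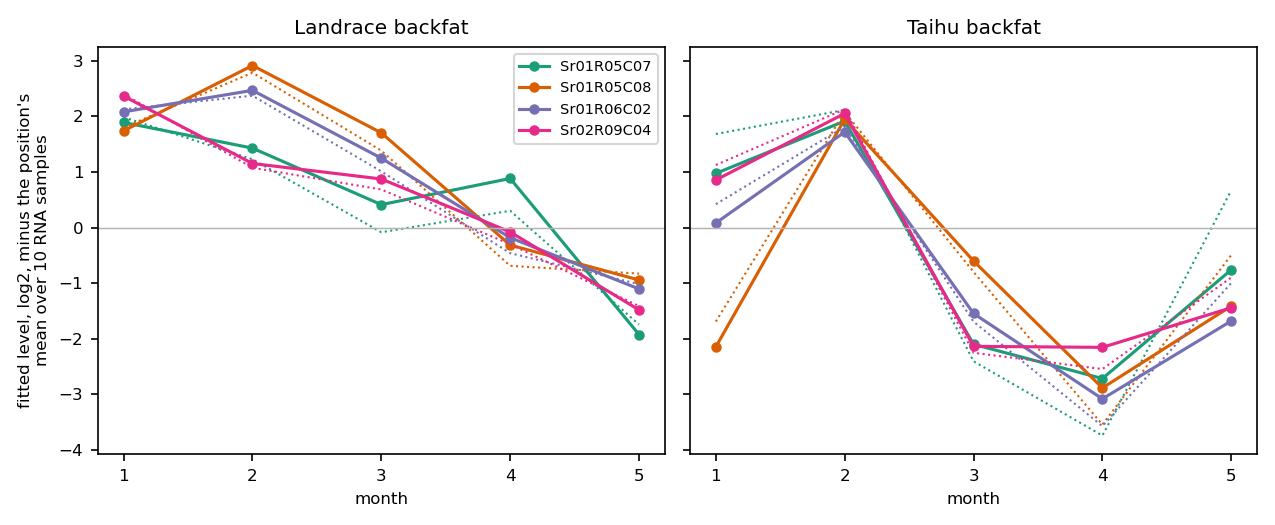
Fitted log2 levels of the 4 positions at months 1 to 5 in Landrace (left) and Taihu (right), each minus the mean of the position over the 10 RNA samples. Solid lines with points are the fit over 15 arrays, dotted lines the fit over 14 arrays without the array labelled Taihu month 4 over Taihu month 5. Fitted levels are lowest at month 5 in Landrace, and in Taihu highest at month 2 and lowest at month 4. Taihu months 3 and 4 lie within 1 SE of each other at Sr01R05C07 and Sr02R09C04 over 15 arrays.

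The 4 positions moved together over the 10 RNA samples, closely for some pairs and loosely for others. Pearson's r of the fitted levels was 0.95 for Sr01R05C07 with Sr02R09C04, 0.93 for Sr01R06C02 with Sr02R09C04, and 0.90 for Sr01R06C02 with each of Sr01R05C07 and Sr01R05C08. Sr01R05C08 had r = 0.74 with Sr02R09C04 and r = 0.70 with Sr01R05C07, its neighbour in the print. Spearman's rho ran between 0.72 and 0.95 in the same pairs. These values describe 10 levels that share arrays and a dye term, and the positions were picked from 1 end of the breed difference, so no p is given.

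Without the Taihu 4-over-5 array the 6 pairs had r between 0.69 and 0.94, and without the 2 RNA samples farthest from the median between 0.59 and 0.97. Over the 15 log ratios r was between 0.64 and 0.90. Within Taihu, Sr01R05C08 had r = 0.62 with each of Sr01R05C07 and Sr02R09C04, while the other pairs lay at 0.78 or above (5 months). Over all 9453 pairs of tested positions, 8.39% had r as high as the lowest of the 6 pairs.

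Each position was also set against the mean of the other 3. Sr01R06C02 followed it most closely (r = 0.98), then Sr02R09C04 (0.92), Sr01R05C07 (0.89) and Sr01R05C08 (0.80). Of the 134 other positions, 11 had r of 0.8 or more with the mean course of the 4, and 9 had r of -0.8 or less. The 3 most alike were Sr02R06C03 (r = 0.98), Sr01R06C09 (0.96) and Sr01R07C08 (0.95), and they were also the first 3 without the Taihu 4-over-5 array (r = 0.97, 0.95 and 0.96).

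The spans of those 3 positions overlapped those of the 4. The fitted levels of Sr02R06C03 spanned log2 5.16 over the 10 RNA samples, those of Sr01R07C08 4.82 and those of Sr01R06C09 3.27. The spans of the 4 positions were 5.80 at Sr01R05C08, 5.55 at Sr01R06C02, 4.63 at Sr01R05C07 and 4.52 at Sr02R09C04, which are ranks 1, 2, 5 and 6 of 138, where the median was 0.86. Over 14 arrays the spans were 5.53 at Sr02R06C03 and at Sr01R07C08 and 3.54 at Sr01R06C09, and 6.33, 5.94, 5.86 and 4.95 at the 4 positions (ranks 1, 2, 3 and 6). All 3 also had a fitted excess of Landrace at months 1, 3 and 4. It was log2 2.51, 2.63 and 1.89 at Sr02R06C03, 2.42, 1.97 and 1.14 at Sr01R06C09, and 0.74, 1.95 and 3.19 at Sr01R07C08. Sr01R07C08 had 53 readings at the ceiling, more than any of the 4.

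The 4 copies of a position disagreed more in signal than in ratio. The brightest copy had a median of 1.82 times the signal of the dimmest in the same channel at the 4 positions, against 1.44 times at the other positions. The widest gap was at Sr01R06C02 on the array of Landrace month 3 over month 4, where the Cy5 signal of Landrace month 3 ran from 3848 to 56528, or 14.7-fold, between copies. The log ratio of the same spots had an SD of 0.06 over copies. The median SD of the log ratio over copies was 0.13 at Sr01R05C07 and at Sr01R05C08, 0.10 at Sr01R06C02 and 0.08 at Sr02R09C04, so the copies give a spread far below the fitted differences at months 3 and 4. Copies share an array and an RNA sample and say nothing of the spread between animals.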

How the data were processed

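The deposited files hold 1 intensity per spot and channel with its local background, not normalized; the software that read the images was version 5.1, per the file headers. Hybridisation and scanning are not given in the sources used here. The 15 columns of processed values deposited with the series were not used, since their rows carry running numbers and no position codes. Copies were joined by dropping the block column from the code. The first 12 positions of each block, alike in all blocks, were taken as shared spots and left out.

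Limma's normexp (offset 50) corrected the mean signal for the median background. Loess within arrays (span 0.3, shared and marked spots at weight 0) normalized log2(Cy5/Cy3), which was then averaged over copies, so spots at the ceiling stayed in. Limma 3.58.1 in R 4.3.3 fitted a level for each RNA sample with a dye term to all 15 arrays (lmFit, eBayes, 5 residual degrees of freedom, Benjamini-Hochberg over 138 positions, threshold 0.05, two-sided). The number of arrays limits the precision, and p-values cover the spread between arrays of the same RNA samples only. The fit was tested on simulated log ratios. The 4 positions and the comparisons were chosen with earlier results of these data known. All 4 are named, with the 3 other positions whose 10 fitted levels correlate best with the mean of theirs.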

Additional observations from a re-analysis of the deposited data

Results flagged for a closer look

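The log ratios of the 5 breed arrays, the 5 Landrace loop arrays and the 5 Taihu loop arrays were examined at each of the 4 positions for 1 array far from the other 4. Of 12 such sets, 1 passed the limit: at Sr02R09C04 the array of Landrace month 5 over month 1 gave log2 -3.19, and the next value of the Landrace loop was 0.62. The gap took up 0.781 of the range of the set (Dixon's limit for 5 values is 0.71). Chance gives about 1 in 20 such sets. That array is the only one of its loop with the later month in Cy5 and spans the whole course, so its set is no set of like values.

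In several steps the fitted change had opposite signs in the 2 breeds. Each breed and month has 1 RNA sample, so these differences were not tested. Between months 4 and 5 Landrace against Taihu was log2 -2.81 against 1.96 at Sr01R05C07, -0.63 against 1.47 at Sr01R05C08, -0.92 against 1.40 at Sr01R06C02 and -1.40 against 0.71 at Sr02R09C04. Without the Taihu 4-over-5 array the signs stayed, at -2.05 against 4.41, -0.14 against 3.05, -0.56 against 2.57 and -1.11 against 1.65. The Landrace value of -0.14 (SE 0.33) lies within 1 SE of 0, so its sign is not resolved.

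Between months 1 and 2 Landrace changed by -0.46 and Taihu by 0.94 at Sr01R05C07, with ceiling readings in both breeds, and -1.21 in Landrace and 1.20 in Taihu at Sr02R09C04. Between months 3 and 4 it was 0.47 in Landrace and -0.62 in Taihu at Sr01R05C07. From month 1 to month 5 it was -2.68 in Landrace and 0.73 in Taihu at Sr01R05C08. Without the Taihu 4-over-5 array these 4 pairs kept their signs as well. With that array, the values of -0.46, 0.47 and -0.62 at Sr01R05C07 were smaller in size than their SE of 0.64. Their signs are thus not resolved in that fit. The Taihu value of 0.73 (SE 0.49) at Sr01R05C08 turned to -0.50 when the Taihu array of months 5 and 1 was left out.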

How the results depend on the processing

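The counts of positions varying between months stayed at 3 or 4 of 4 in both breeds under every alternative run. Of all 138 positions, 55.8% varied in Landrace and 60.9% in Taihu in the main fit. Without the Taihu 4-over-5 array 94 and 103 of 138 did. The 4 positions were chosen on the same levels, so nothing is read from their counts. The count lower or higher at month 5 than at month 1 in Taihu was 2 (43.5% of all 138 positions), and became 1 with no dye term (31.9%) and 4 with array weights (52.2%). Leaving out single arrays gave 2 to 4 in Taihu, with 4 without the Taihu 4-over-5 array (47.1%), and 2 to 4 in Landrace, with 2 when the Landrace array of months 5 and 1 was left out (32.6%, against 54.3% with it). The share of all positions thus moved with these counts. Month 5 minus month 1 in Taihu at Sr01R05C08 turned to log2 -0.50 when the Taihu array of months 5 and 1 was left out, against 1.20 without the Taihu 4-over-5 array. The breed difference at month 5 changed sign under 1 or more alternatives at 3 positions, ranging from -0.33 to 1.10 at Sr01R05C08, from -0.10 to 1.07 at Sr01R06C02 and from -0.53 to 0.80 at Sr02R09C04. At Sr01R05C07 it kept its sign but ranged from -2.41 without the Taihu 4-over-5 array to -0.01 without the breed array of month 5. The cause was not tested.

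No paired analysis was possible because the replicate numbers of these arrays only name them in order of deposit, and each array already pairs 2 RNA samples. With the ceiling spots left out, Sr01R05C07 kept 10 arrays and Sr01R06C02 11, too few to fit any of 8 differences. Sr01R05C08 and Sr02R09C04 kept 14. Array weights did not fully converge. The alternative on the deposited value table was not run, nor were slide or scan blocks, for which the headers used here hold no value. Ceiling readings and 1 RNA sample per breed and month limit all values.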
